A study of Mus musculus with 6 samples.

Results

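Triglyceride synthesis enzymes were examined in the iWAT (subcutaneous inguinal white adipose tissue) of *Hlx* transgenic mice. The set holds 10 genes fixed by name, *Gpam*, *Agpat2*, *Agpat3*, *Agpat6*, *Agpat9*, *Lpin1*, *Lpin2*, *Lpin3*, *Dgat1* and *Dgat2*, and each was found on 1 row of the 19445 gene loci in the deposited table. RNA-Seq had been run on iWAT of 3 mice that carry *Hlx* cDNA behind the *aP2* (*Fabp4*) promoter (TG) and 3 wild-type (WT) littermates that lack it, all 12 weeks old and labelled as male, with 1 library for each mouse. The *aP2* promoter is active in fat cells and is also known to be active in macrophages. The transgene had been introduced into C57BL/6 × SJL hybrid embryos, and the lines were then backcrossed to C57BL/6 for 3 or more generations. Whether the TG mice came from 1 line or several is not given in the sources used here. Values are FPKM, in which reads are divided by gene length and library size, so that levels of different genes can be set side by side.

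Fat cells store energy as triglyceride, which is built on glycerol-3-phosphate in 4 steps at the endoplasmic reticulum and the mitochondrial outer membrane. Glycerol-3-phosphate acyltransferases (GPATs) add the first fatty acid, 1-acylglycerol-3-phosphate acyltransferases (AGPATs) add the next and give phosphatidate, lipins remove the phosphate to leave diacylglycerol, and diacylglycerol acyltransferases (DGATs) add the last fatty acid. Each step has several isoenzymes, and white fat is known for high *Agpat2* and *Dgat2*, while loss of AGPAT2 or lipin 1 leads to lipodystrophy. In brown fat the same route refills the lipid droplets from which fatty acids are taken for heat production.

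Summed FPKM was between 466059 and 542096 per mouse. The absolute depth is unknown, and the relative depth, taken from the commonest ratio between values under 0.3 FPKM, was from 0.692 to 1.41 times that of WT replicate 3, with the lowest values in TG replicates 1 and 3. Only 12.5% to 15.3% of those low values lay on the common ratio. The transgene showed in the labels' direction, since *Hlx* was between 79.6 and 109.7 FPKM in TG and between 6.88 and 8.14 FPKM in WT iWAT. Adipocyte markers were present in all 6 mice, with 6 of 7 markers on a row of their own and summed levels of 28199 to 33447 FPKM in TG and 23904 to 29610 FPKM in WT iWAT. Most of each sum was *Fabp4*, at 24561 to 29363 FPKM in TG and 19297 to 23539 FPKM in WT iWAT. Brown adipocyte markers, *Ucp1* among them, summed to between 6122 and 7924 FPKM in TG and between 608 and 1047 FPKM in WT iWAT. The label of male mice was not borne out by the data, as *Xist* was at 20.2 FPKM or more in every mouse and the 28 Y-linked loci all stood at 0. In whole tissue, fewer cells of one type and less RNA per cell cannot be told apart.

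Of the 10 enzymes, 2 were higher (*Agpat6* and *Agpat3*) and 1 was lower (*Agpat9*) in TG than in WT iWAT at an adjusted p under 0.05 (limma on log2(FPKM + 1), Benjamini-Hochberg over 11692 loci whose mean exceeded 1 FPKM in either genotype). All 10 enzymes passed this filter. Among all loci tested, 18.6% were called, 11.6% as higher and 7.03% as lower. The median log2 fold change of the 10 enzymes was 0.30, beside -0.01 for all tested loci. This median depends on the kind of scaling. *Agpat2*, *Agpat3* and *Dgat2* were at 0.60, 0.39 and 0.35 with median-ratio scaling, close to the 0.60, 0.38 and 0.34 without it. Quantile normalization lowered them to 0.24, 0.16 and -0.01. It raised only *Lpin2* and *Lpin3*, from 0.27 and -0.21 to 0.28 and -0.17. The genotypes did not overlap at 7 of the 10, with TG above WT at 5 and below at 2. Of all tested loci 42.9% did not overlap, 22.8% with TG above WT and 20.1% with TG below. No enzyme changed by as much as 2-fold upward in mean FPKM, and *Agpat9* alone fell by more than that.

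**Figure D1:**
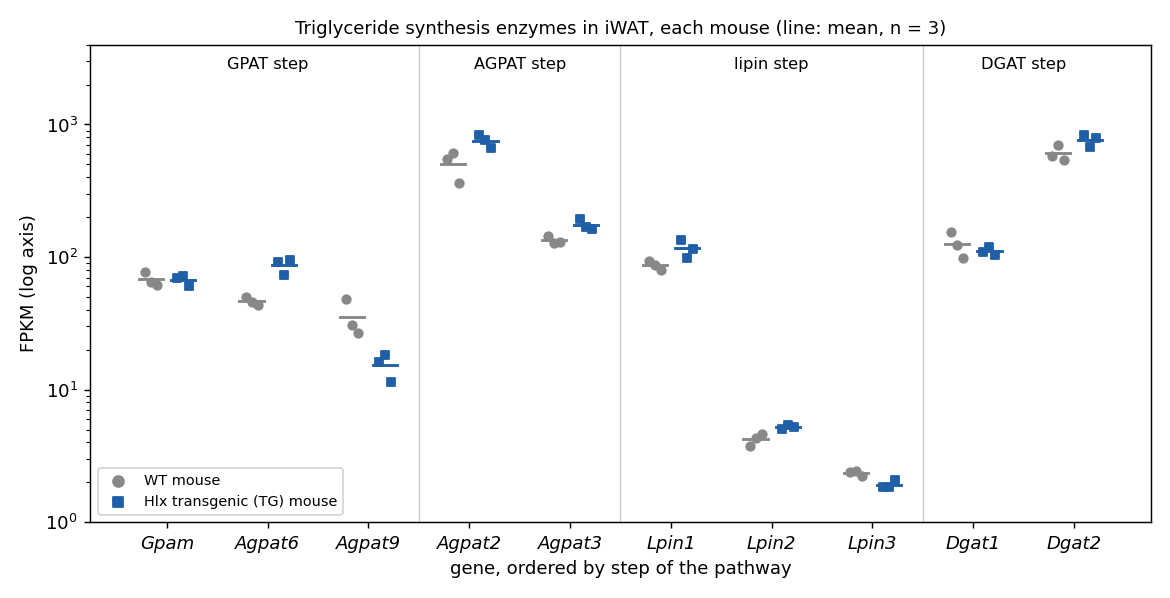
FPKM of the 10 enzymes (log axis) in each of 3 WT mice (grey circles) and 3 TG mice (blue squares), ordered by step, with a line at each mean. *Agpat6* lies between 73.3 and 95.4 FPKM in TG and between 43.1 and 50.3 FPKM in WT mice, while *Agpat9* is lower in every TG mouse than in every WT mouse.

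The levels spanned a wide range. In WT iWAT, mean FPKM fell in the order *Dgat2* (607), *Agpat2* (507), *Agpat3* (134), *Dgat1* (125), *Lpin1* (87.0), *Gpam* (67.8), *Agpat6* (46.4), *Agpat9* (35.0), *Lpin2* (4.21) and *Lpin3* (2.36). Neighbours in this order whose mice overlapped were *Dgat2* with *Agpat2*, *Agpat3* with *Dgat1*, and *Agpat6* with *Agpat9*. *Dgat2* and *Agpat2* stood above 99.2% of the tested loci in mean level over the 6 mice, whereas *Lpin3* stood above 11.7%. In TG iWAT the order was *Dgat2* (769), *Agpat2* (753), *Agpat3* (175), *Lpin1* (116), *Dgat1* (110), *Agpat6* (86.8), *Gpam* (67.2), *Agpat9* (15.3), *Lpin2* (5.25) and *Lpin3* (1.91). Here the mice of *Dgat2* overlapped with those of *Agpat2*, and those of *Lpin1* with those of *Dgat1*. *Agpat6* was above *Gpam* in each of the 3 TG mice and below it in each of the 3 WT mice.

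The first step showed calls in both directions. *Agpat6*, the older symbol of *Gpat4*, encodes a GPAT of the endoplasmic reticulum and lies on chromosome 8 of mm10 from 23171353 to 23209070. It had 91.6, 73.3 and 95.4 FPKM in the TG mice and 50.3, 45.7 and 43.1 FPKM in the WT mice. Every TG mouse was above every WT mouse, and TG replicate 2 was the lowest of its genotype. The means were 86.8 ± 11.8 FPKM and 46.4 ± 3.65 FPKM (SD, n = 3 each), a ratio of 1.87 and a log2 fold change of 0.88 ± 0.12 (SE, limma adjusted p = 0.0042). This change was larger in size than that of 94.0% of the tested loci. The call held under every one of 15 alternative fits, with adjusted p from 0.00215 to 0.0217 and log2 fold changes from 0.81 to 1.00. Of 6 brown adipocyte markers, 5 were called higher, the direction of *Agpat6*, at the sums given above. *Dio2* was not called, had a log2 fold change of -0.37 and overlapped between genotypes. The part of brown adipocyte RNA in the *Agpat6* result was not tested.

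*Agpat9*, the older symbol of *Gpat3*, encodes the closest relative of that enzyme and is known for its rise during adipocyte differentiation. It lies on chromosome 5 from 100846229 to 100899102. The TG mice had 16.2, 18.2 and 11.5 FPKM and the WT mice 48.0, 30.5 and 26.6 FPKM. The highest TG value was below the lowest WT value, and WT replicate 1 was well above its littermates. Mean FPKM was 15.3 ± 3.46 in TG and 35.0 ± 11.4 in WT iWAT (SD, n = 3 each), a ratio of 0.438. The log2 fold change was -1.12 ± 0.24 (SE, limma adjusted p = 0.0224), larger in size than at 96.6% of the tested loci. The call was lost without TG replicate 1 (log2 fold change -1.17, adjusted p = 0.0523) and without TG replicate 3 (-0.94, adjusted p = 0.0677).

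Macrophage RNA moved in the same direction as *Agpat9*. Of 5 macrophage markers, 4 were called lower, and their summed level was between 343 and 487 FPKM in TG and between 727 and 923 FPKM in WT iWAT. WT replicate 3 had the highest macrophage sum and the lowest *Agpat9* of the WT mice, while TG replicate 2 was the highest of the TG mice in both. The part of macrophage RNA in the *Agpat9* result was not tested. The library kit does not mark the strand, and the exons of an antisense gene, 4930458D05Rik, share 30.0% of the annotated exon bases of *Agpat9*, so reads of these genes cannot be told apart there.

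*Gpam*, which encodes the mitochondrial GPAT1 and lies on chromosome 19 from 55067634 to 55127246, had 69.6, 71.8 and 60.2 FPKM in the TG mice. The WT mice had 77.2, 64.5 and 61.5 FPKM, so the genotypes overlapped. The log2 fold change was -0.01 ± 0.12 (SE, limma adjusted p = 0.962), with a 95% interval from -0.28 to 0.27, or from 0.822-fold to 1.20-fold. Its sign turned without WT replicate 1 (0.09) and without TG replicate 3 (0.07).

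**Figure D2:**
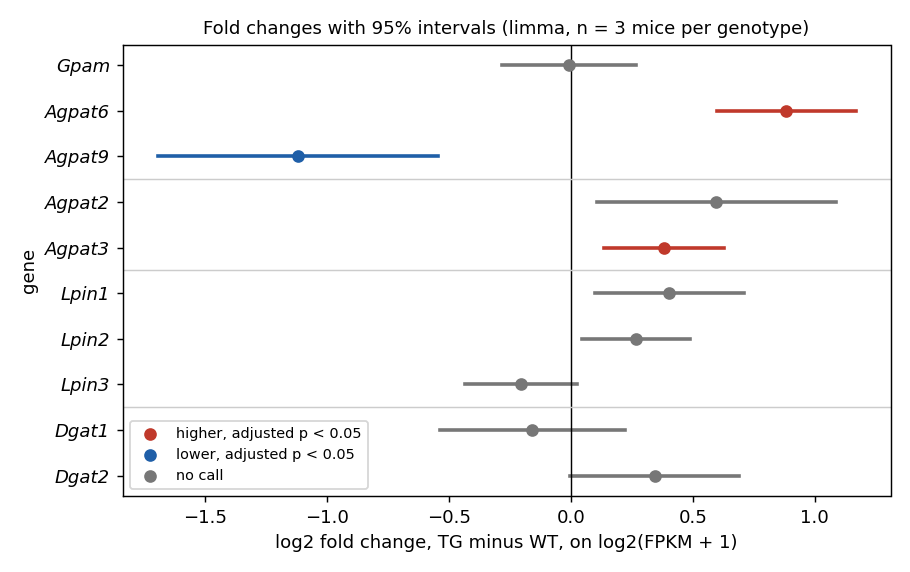
Log2 fold change of each enzyme, TG minus WT, on the log2(FPKM + 1) scale with its 95% interval (bars, limma, not adjusted for multiple tests), coloured by call and separated by step. *Agpat6* at 0.88 and *Agpat9* at -1.12 lie on opposite sides of *Gpam* at -0.01.

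At the next step, *Agpat3* was called higher and *Agpat2* was not called. *Agpat2*, the main AGPAT of fat cells, lies on chromosome 2 and its locus in the table runs from 26581000 to 26604256. Its values were 833, 758 and 668 FPKM in the TG mice and 549, 608 and 364 FPKM in the WT mice. All TG values were above all WT values, and WT replicate 3 was far below the other two WT mice. The log2 fold change was 0.60 ± 0.21 (SE, 95% interval 0.11 to 1.09, limma adjusted p = 0.0875), and it ranged from 0.38 without WT replicate 3 to 0.74 without WT replicate 2. With quantile normalization the log2 fold change was 0.24 (adjusted p = 0.314). The locus of *Agpat2* spans the endothelial gene *Egfl7*, which has its own row and had 32.0 ± 2.98 FPKM in TG and 30.3 ± 0.818 FPKM in WT iWAT (SD, n = 3 each).

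*Agpat3*, an AGPAT that also acts on phospholipids, lies on chromosome 10 and its locus in the table runs from 78248882 to 78352419. It had 195, 167 and 164 FPKM in the TG mice and 144, 127 and 130 FPKM in the WT mice. The genotypes did not overlap, and replicate 1 was the highest in each. Mean FPKM was 175 ± 17.0 and 134 ± 9.04 (SD, n = 3 each), and the log2 fold change was 0.38 ± 0.10 (SE, limma adjusted p = 0.0449). The call was lost without any 1 of the 6 mice, with adjusted p from 0.0574 to 0.131 and log2 fold changes from 0.31 to 0.44. It was also lost with quantile normalization, where the log2 fold change was 0.16 (adjusted p = 0.18).

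None of the lipins was called. *Lpin1*, whose product is the main phosphatidate phosphatase of fat and a nuclear coactivator, lies on chromosome 12 and its locus in the table runs from 16534957 to 16589875. It had 135, 98.8 and 114 FPKM in the TG mice and 93.3, 87.8 and 79.7 FPKM in the WT mice. The TG values were all above the WT values, with TG replicate 2 the nearest to them. The log2 fold change was 0.40 ± 0.13 (SE, 95% interval 0.10 to 0.71, limma adjusted p = 0.0714). Without TG replicate 2 it was 0.51 (adjusted p = 0.0364), and with sample quality weights it was 0.37 (adjusted p = 0.0462). Skeletal muscle also expresses *Lpin1*, and the summed level of 7 muscle markers was 78.2, 573 and 115 FPKM in the TG mice and 7.15, 121 and 35.1 FPKM in the WT mice. All 7 had positive log2 fold changes, from 0.80 to 2.62 with a median of 2.17, and overlapped between genotypes, and none was called. TG replicate 2 had the most muscle RNA and the lowest *Lpin1* of the TG mice, and the part of muscle RNA in the *Lpin1* values was not tested.

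*Lpin2* and *Lpin3* were expressed at a small fraction of the level of *Lpin1*. *Lpin2*, on chromosome 17 from 71183664 to 71249818, had 5.07, 5.43 and 5.27 FPKM in the TG mice and 3.73, 4.30 and 4.61 FPKM in the WT mice. TG values were all higher and lay within a narrow range, but the log2 fold change of 0.27 ± 0.09 (SE, limma adjusted p = 0.0889) was not called. *Lpin3*, on chromosome 2 from 160880670 to 160906000, had 1.83, 1.83 and 2.08 FPKM in the TG mice and 2.39, 2.44 and 2.24 FPKM in the WT mice. All TG values were lower than all WT values, and the log2 fold change was -0.21 ± 0.10 (SE, limma adjusted p = 0.174). At these low levels the pseudocount of 1 understates a change, and with a pseudocount of 0.1 the log2 fold changes were 0.32 for *Lpin2* and -0.29 for *Lpin3*.

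Neither DGAT was called. *Dgat2*, which encodes the DGAT that favours newly made fatty acids, lies on chromosome 7 from 99153663 to 99182713. It had 840, 678 and 788 FPKM in the TG mice and 582, 699 and 540 FPKM in the WT mice. WT replicate 2 was above TG replicate 2, so the genotypes overlapped. The log2 fold change was 0.34 ± 0.15 (SE, 95% interval -0.00494 to 0.69, limma adjusted p = 0.143), and with quantile normalization it was -0.01 (adjusted p = 0.962). *Dgat1*, which encodes an unrelated enzyme that favours fatty acids taken up or released by lipolysis, lies on chromosome 15. The locus of *Dgat1* in the table runs from 76501081 to 76513724. Its values were 110, 118 and 103 FPKM in the TG mice and 154, 122 and 98.9 FPKM in the WT mice. The WT values enclosed the TG values, and the log2 fold change was -0.16 ± 0.16 (SE, 95% interval -0.54 to 0.22, limma adjusted p = 0.511). Without WT replicate 1 the log2 fold change was 0.00188.

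The make-up of each step was then set out as shares of the summed FPKM of its enzymes in the set within a mouse. Such shares do not depend on a common scaling factor applied to a whole library. They were not recomputed with quantile normalization, whose shift differs with the level of a gene. Among the 3 GPATs, *Agpat6* held 51.6%, 44.9% and 57.1% in the TG mice and 28.7%, 32.5% and 32.9% in the WT mice. *Agpat9* held 9.14%, 11.2% and 6.89% in the TG mice and 27.3%, 21.7% and 20.2% in the WT mice. Neither share overlapped between genotypes, and the ratio of *Agpat6* to *Agpat9*, chosen for description after the values were seen, was 5.98 ± 2.16 in TG and 1.39 ± 0.302 in WT iWAT (SD, n = 3 each). The share of *Gpam* was 39.7 ± 3.99% in TG and 45.6 ± 1.47% in WT iWAT (SD, n = 3 each), also without overlap, although the highest TG share, 43.96%, was barely below the lowest WT share, 43.99%. Its two-sided exact permutation test gave p = 0.1 (adjusted p = 0.2 over the 4 shares tested), and 0.1 is the smallest p that 3 mice against 3 allow.

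**Figure D3:**
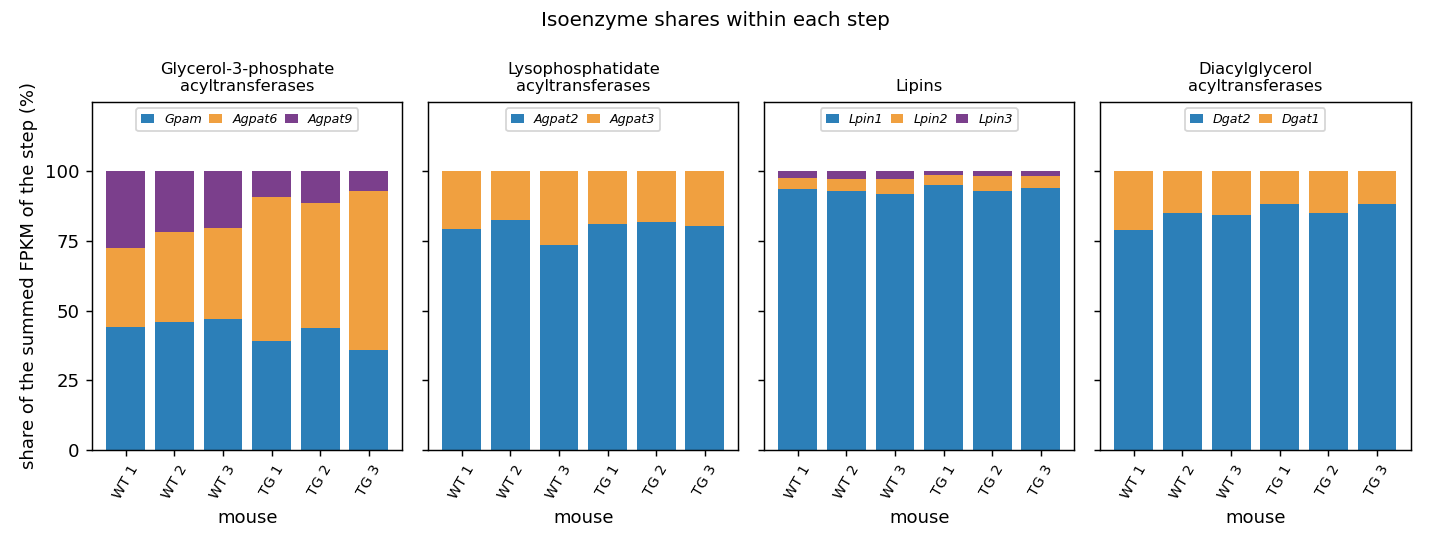
Share of each enzyme in the summed FPKM of the set's enzymes at its step (%, stacked bars from 0 to 100) in each of 3 WT and 3 TG mice, with 1 panel per step. The *Agpat6* share of the GPATs lies between 44.9% and 57.1% in TG and between 28.7% and 32.9% in WT mice, while *Lpin1* holds over 92% of the lipins in all 6 mice.

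*Dgat2* held 87.3 ± 1.91% of the DGAT sum in TG and 82.9 ± 3.30% in WT iWAT (SD, n = 3 each). The lowest TG share, 85.14%, was barely above the highest WT share, 85.08%, and the exact permutation test gave p = 0.1 (adjusted p = 0.2). *Agpat2* held 81.1 ± 0.795% of the pair in TG and 78.5 ± 4.56% in WT iWAT, with overlap (exact permutation p = 0.5, adjusted p = 0.5). *Lpin1* held 94.1 ± 0.994% of the lipins in TG and 92.9 ± 0.881% in WT iWAT, also with overlap (exact permutation p = 0.2, adjusted p = 0.267). The share of *Lpin3* was between 1.29% and 1.73% in TG and between 2.41% and 2.59% in WT mice.

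Summed over the enzymes of the set, the GPAT step overlapped between genotypes while the AGPAT and lipin steps did not. The GPAT sum was 177, 163 and 167 FPKM in the TG mice and 176, 141 and 131 FPKM in the WT mice. The rise of *Agpat6* and the fall of *Agpat9* thus left a ratio of mean sums of 1.13. The AGPAT sum, of *Agpat2* and *Agpat3* without *Agpat1*, *Agpat4* and *Agpat5*, was 1027, 925 and 832 FPKM in the TG mice and 693, 735 and 494 FPKM in the WT mice, a ratio of 1.45. For the lipins the ratio was 1.32, and for the DGATs, whose mice overlapped, it was 1.20. These sums are a description and were not tested.

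For the enzyme with the smallest adjusted p in each step, the 3 tested genes with the most similar pattern over the 6 mice were listed, by the root mean square difference of mean-centred log2(FPKM + 1). They were *Ahcyl2*, *Lrpprc* and *Guf1* for *Agpat6*, with differences of 0.03, 0.04 and 0.05. For *Agpat3* they were *Gbas*, *Auh* and *Agtpbp1*, for *Lpin1* they were *F11r*, *Foxo4* and *Aasdhppt*, and for *Dgat2* they were *Necap1*, *Rabif* and *Mars2*, with differences from 0.0229 to 0.0435. *Ahcyl2* had 62.9, 49.2 and 62.1 FPKM in the TG mice and 33.0, 29.5 and 27.3 FPKM in the WT mice. TG replicate 2 was the lowest of the TG mice and replicate 1 the highest of the WT mice. *Agpat6* shared both features, which follows from the way *Ahcyl2* was picked.

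The genes around the pathway were read from 5 lists, and of 39 list genes tested 11 were called higher and 2 lower, where 11.6% and 7.03% of all tested loci were. The median of their log2 fold changes was 0.12, beside -0.01 for all tested loci. Among 9 other acyltransferases and phosphatidate phosphatases tested, *Mogat2* was higher, *Mogat1* was lower and 7 were not called. Both encode monoacylglycerol acyltransferases, which make diacylglycerol without phosphatidate. *Mogat2* had 7.92, 3.93 and 5.04 FPKM in the TG mice and 1.49, 3.00 and 2.34 FPKM in the WT mice (log2 fold change 1.00 ± 0.25 (SE), limma adjusted p = 0.0366). *Mogat1*, taken from the higher of its 2 rows, had 13.3, 19.2 and 13.7 FPKM in the TG mice and 24.9, 25.4 and 22.6 FPKM in the WT mice (log2 fold change -0.64 ± 0.14 (SE), limma adjusted p = 0.0234). Neither gene overlapped between genotypes. The call of *Mogat2* was lost without any 1 of TG replicates 1 and 3 and WT replicates 1 and 3 (adjusted p from 0.0753 to 0.0955). The call of *Mogat1* was lost without any 1 mouse other than TG replicate 2 (adjusted p from 0.0555 to 0.0799). *Agpat1*, the widely expressed AGPAT, was not called at 0.35 on the log2 scale (limma, adjusted p = 0.0736), and *Dgat2l6* was listed at 0 in all 6 mice.

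Of 8 genes tested for glycerol-3-phosphate and acyl-CoA supply, 4 were called higher and none lower, and the median log2 fold change was 0.48. *Gpd1*, which makes glycerol-3-phosphate from a glycolytic intermediate, had 3150, 2549 and 2412 FPKM in the TG mice and 1006, 969 and 945 FPKM in the WT mice (log2 fold change 1.46 ± 0.15 (SE), limma adjusted p = 0.00176). *Gyk*, the glycerol kinase that makes the same substrate from free glycerol, had 5.52, 4.44 and 4.90 FPKM in the TG mice and 2.00, 1.36 and 1.61 FPKM in the WT mice (log2 fold change 1.17 ± 0.12 (SE), adjusted p = 0.00186). Every TG mouse exceeded every WT mouse for both genes. *Acsl5*, an acyl-CoA synthetase, had 114, 154 and 113 FPKM in the TG mice and 38.4, 30.7 and 37.8 FPKM in the WT mice (log2 fold change 1.80 ± 0.15 (SE), adjusted p = 0.000792). *Acsl1*, the main acyl-CoA synthetase of fat cells, had a log2 fold change of 0.23 (95% interval -0.12 to 0.59, adjusted p = 0.298). *Aqp7*, the glycerol channel of fat cells, was higher with a log2 fold change of 0.65 ± 0.15 (SE, adjusted p = 0.0249), a call that was lost without any 1 mouse other than TG replicate 2 (adjusted p from 0.0532 to 0.0817).

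**Figure D4:**
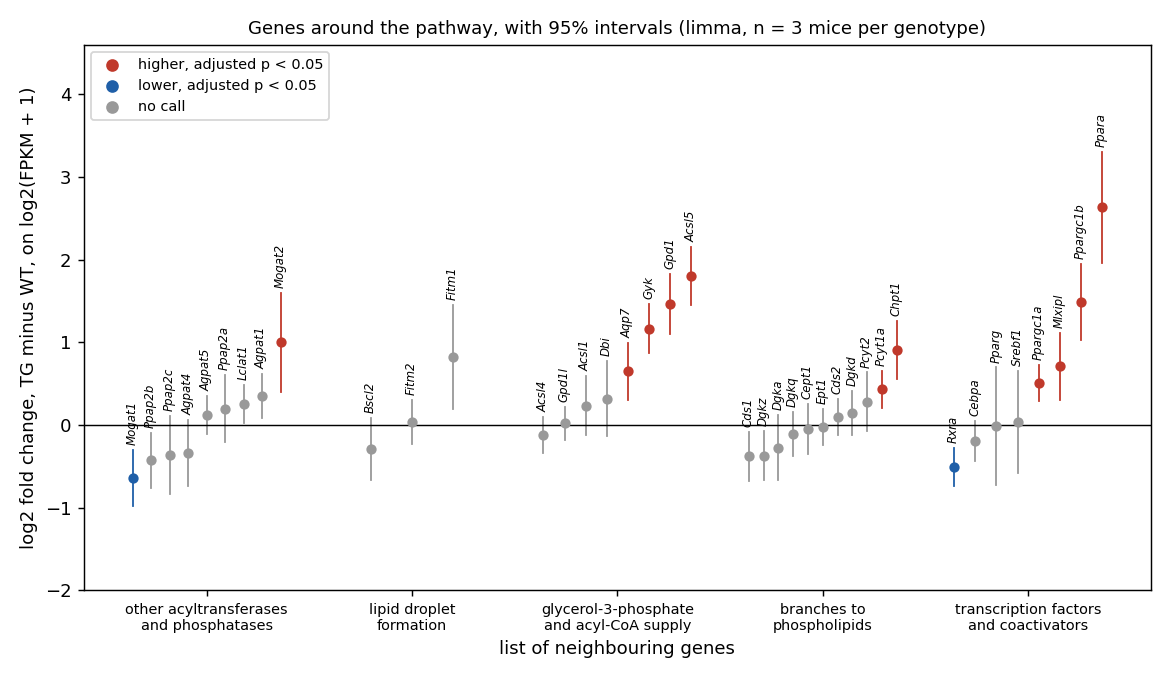
Log2 fold change, TG minus WT, on the log2(FPKM + 1) scale with 95% interval (bars, limma, not adjusted for multiple tests) for the 39 tested genes of 5 lists around the pathway, coloured by call. *Gpd1* (1.46), *Gyk* (1.17) and *Acsl5* (1.80) in the supply list and *Ppara* (2.63) among the transcription factors stand above 0.88. That is the value of *Agpat6*, the highest of the enzymes of the set, which are not drawn here. *Ppargc1b* (1.49), *Mogat2* (1.00) and *Chpt1* (0.90) also stand above it.

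Of 11 genes that lead from phosphatidate or diacylglycerol into phospholipids or back, 2 were higher, none was lower and 9 were not called. *Chpt1*, which joins diacylglycerol to choline phosphate and so draws on the substrate of the DGATs, had 1139, 1044 and 975 FPKM in the TG mice and 621, 603 and 472 FPKM in the WT mice (log2 fold change 0.90 ± 0.15 (SE), limma adjusted p = 0.00848). *Pcyt1a*, which makes the activated choline for that reaction, had a log2 fold change of 0.43 ± 0.10 (SE, adjusted p = 0.0249), and its call was lost without any 1 of TG replicates 1 and 3 and WT replicates 1 and 3 (adjusted p from 0.0683 to 0.0818). *Cds1* and *Cds2*, which lead phosphatidate away from triglyceride, were not called, at -0.38 and 0.10 on the log2 scale (limma, adjusted p = 0.0787 and 0.471). None of the 3 tested genes of the lipid droplet list was called, with *Bscl2*, *Fitm1* and *Fitm2* at log2 fold changes of -0.29, 0.82 and 0.04. *Fitm1* was near the floor, at 0.522, 1.96 and 0.616 FPKM in the TG mice and 0, 0.188 and 0.107 FPKM in the WT mice. It passed the filter only through its TG mean of 1.03 FPKM. *Ctdnep1*, which activates lipins, shared its row with another gene and was not read.

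Of 8 transcription factors and coactivators of the pathway tested, 4 were higher, 1 was lower and 3 were not called. *Ppara*, a nuclear receptor of fatty acid oxidation, had 27.1, 27.8 and 43.0 FPKM in the TG mice and 6.17, 2.54 and 4.85 FPKM in the WT mice (log2 fold change 2.63 ± 0.29 (SE), limma adjusted p = 0.00192). *Ppargc1b* and *Ppargc1a*, coactivators of mitochondrial genes, had log2 fold changes of 1.49 and 0.51 (adjusted p = 0.00363 and 0.0122). The other gene called higher was *Mlxipl*, which encodes the glucose-responsive factor ChREBP, at 0.71 (adjusted p = 0.0310). *Rxra*, the partner receptor of PPARs, had 29.2, 25.4 and 23.2 FPKM in the TG mice and 37.2, 36.5 and 37.9 FPKM in the WT mice (log2 fold change -0.51 ± 0.10 (SE), adjusted p = 0.0133). *Pparg* and *Srebf1*, the regulators best known for driving the storage genes, had log2 fold changes of -0.02 and 0.03. Their values were widely spread, with 95% intervals from -0.73 to 0.70 and from -0.58 to 0.65.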

How the data were processed

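The authors sequenced TruSeq libraries on an Illumina instrument as single-end reads of 100 bases, aligned them to mm10 with TopHat and obtained gene abundances with Cufflinks. The submitters' processing notes name CASAVA 1.8.2, TopHat2 2.0.9, Bowtie2 2.1.0 and Cufflinks 2.2.1, and the annotation is not given in the sources used here. The deposited FPKM values of all 6 mice were used, with no read counts.

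From these, log2(FPKM + 1) was tested with limma 3.58.1 in R 4.3.3 (eBayes with trend, two-sided, no covariates) over 11692 loci, called at an adjusted p under 0.05. The filter, a mean over 1 FPKM in a genotype, follows the study. A symbol on several rows was read from the row with the highest mean. Shares were compared with exact permutation tests over 20 arrangements. Exon overlaps came from GENCODE annotation of the same build, and locus starts were made 1-based. Tested on simulated data for TG against WT with 11529 genes, the procedure called 94% of genes changed 3-fold and 79% of those changed 2-fold. The simulation used normal noise and changed only a small part of the genes, all of them at levels above that of *Lpin3*. Changes under 2-fold, the size seen for most of the enzymes, were not simulated.

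The members and lists were chosen with earlier results of these data known. All 10 members are named, with up to 4 called genes per list by adjusted p. A few uncalled or untested list genes are given as values and were chosen after their values were seen. The p-values cover the spread between mice. The markers were used in 8 lists by count and summed level. Same-numbered mice are different animals and were not treated as pairs. Alternatives changed 1 choice at a time: pseudocount, filter, scaling, variance model, weights, block, locus choice, call rule and each mouse left out.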

Additional observations from a re-analysis of the deposited data

How the results depend on the processing

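The number of enzymes called higher, 2, was 1 with no filter, with quantile normalization and at an adjusted p under 0.01, and 0 with a ratio of at least 2 required, and it ranged from 1 to 2 with each mouse left out. The 2 called without TG replicate 2 were *Agpat6* and *Lpin1*, as *Agpat3* lost its call there (limma adjusted p = 0.064). The number called higher was 3 with sample weights, where *Lpin1* was added. The number called lower, 1, was 0 at an adjusted p under 0.01 and ranged from 0 to 1 with each mouse left out. Over all loci, 1352 higher and 822 lower became 569 and 199 at an adjusted p under 0.01, and 413 and 204 with a ratio of at least 2. They ranged from 780 to 1295 and from 329 to 906 with each mouse left out. Of the list genes, 11 higher and 2 lower became 6 and 0 under either stricter rule, 5 were lower with quantile normalization, and the counts ranged from 7 to 11 and from 1 to 5 with each mouse left out. *Agpat6* kept its call in 15 of 15 alternative fits, *Agpat9* in 13 and *Agpat3* in 7.

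Signs turned for 3 uncalled enzymes: *Dgat2* with quantile normalization (-0.00989), *Gpam* with mice left out (from -0.0739 to 0.0875) and *Dgat1* with mice left out (from -0.31 to 0.00188). Quantile normalization moved the log2 fold change of the 692 loci between 100 and 1000 FPKM by a median of -0.24, and of the 5303 loci between 10 and 100 FPKM by -0.03, so it lowered the abundant *Agpat2*, *Agpat3* and *Dgat2* most. The differences in share kept their direction with each mouse left out, from -7.95 to -3.98 percentage points for *Gpam*, 0.142 to 4.66 for *Agpat2*, 0.626 to 1.62 for *Lpin1* and 2.54 to 5.54 for *Dgat2*.

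Same-numbered mice did not deviate together (correlations of 0.01, 0.03 and 0.07 over 11692 loci). Between differently numbered TG and WT mice the correlations ranged from -0.19 to 0.13. The labels do not say which mice shared a litter, so pairing by litter was not examined. With the replicate block, 1230 loci were higher and 656 lower, and 2 enzymes were higher and 1 lower, as without it. *Mogat2* (adjusted p = 0.0923) and *Pcyt1a* (adjusted p = 0.0637) lost their calls. *Mogat2* also lost its call with no filter (adjusted p = 0.0687). No counts enter these values, so the counting error of low values such as those of *Lpin3* could not be computed.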

Other observations

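Markers of other cell types were also read in the same libraries. Of 5 endothelial markers, *Kdr* and *Emcn* were called higher in TG iWAT, with summed levels between 139.7 and 149 FPKM in TG and between 121 and 132 FPKM in WT mice. *Pecam1* overlapped between genotypes, with a log2 fold change of -0.09 (limma adjusted p = 0.632). *Cdh5* and *Tie1* were not called, at 0.29 and 0.17 on the log2 scale. Of 5 lymphocyte markers tested, *Ms4a1* was called lower, and the sums, 199 to 269 FPKM in TG and 254 to 372 FPKM in WT mice, overlapped. None of 5 fibroblast and progenitor markers and none of 5 epithelial markers was called (limma), at sums of 864 to 1097 FPKM and 101 to 215 FPKM in TG mice and 1040 to 1392 FPKM and 153 to 250.3 FPKM in WT mice. Among adipocyte markers, *Adipoq* was called lower (log2 fold change -0.85, adjusted p = 0.0172, limma), and 5 others were not called. Of 6 brown adipocyte markers, 5 were called higher and *Dio2* was not (log2 fold change -0.37, adjusted p = 0.576).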
